A study of Homo sapiens with 6 samples.

Results

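A group of 10 genes of fatty acid binding, lipid storage and fat use were followed in MRC5 fibroblasts that overexpressed JUN or were turned into induced cancer-associated fibroblasts (iCAFs). The members were taken by symbol and are PPARG, FABP3, FABP4, FABP5, CD36, LPL, ANGPTL4, PLIN2, PDK4 and CPT1A, 10 of the 25368 symbols in each of 2 expression tables, and all 10 are listed in both. FABP3 and FABP4 were selected on their measured decrease in iCAFs, among the largest of that comparison, so their values in that comparison are a description and support nothing. RNA-seq was done on 6 libraries of MRC5, a human embryonic lung fibroblast line that the study had immortalised with hTERT, and each condition is a single library. The first table holds MRC5 infected with adenovirus carrying the empty vector (control), FLAG-tagged wild-type JUN (JUN WT) or FLAG-tagged JUN with both JNK phosphorylation sites changed to alanine (JUN AA). The second holds untreated MRC5, iCAFs made by 7 days of culture in conditional medium of the breast cancer line MDA-MB-231, and iCAFs given 1 µM of the JNK inhibitor JNK-IN-8 (iCAFs+JNKi) for 48 h, with DMSO named as the vehicle. All conditions share this single line, and the infected and uninfected cells are in different tables. Conditional medium was collected from cancer cells kept without serum, whereas MRC5 were maintained with serum, so the medium itself and the factors secreted into it cannot be told apart. With 1 library each there is no replicate error, no test was possible and no p-value is given, and every comparison is a difference between those libraries.

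Fatty acids are poorly soluble and are carried inside cells by small fatty acid binding proteins. PPARG is a nuclear receptor that is activated by fatty acids and switches on genes for their uptake, binding and storage, most of all in fat cells, and several of the other 9 genes are known PPAR targets. Stored fat sits in lipid droplets, and when it is burned, fatty acids enter mitochondria through carnitine palmitoyltransferases while pyruvate use is held back by PDK enzymes. In lung, lipid-storing fibroblasts called lipofibroblasts are marked by PPARG and PLIN2.

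Levels are given as FPKM, the deposited fragments per kilobase of exon model scaled to the mapped fragments of a library, and differences as log2(FPKM + 1), on which low genes change by less than their ratio. JUN mRNA was at 25.5 FPKM in the control, against 4543 in JUN WT and 291 in JUN AA. The amount of JUN mRNA therefore differs between JUN WT and JUN AA together with the mutation. It was at 57.1 FPKM in MRC5, against 55.3 in iCAFs and 21.1 in iCAFs+JNKi. These are mRNA levels and do not show phosphorylation. On Western blots the paper reported more phosphorylated JUN protein in iCAFs than in MRC5, with total JUN protein unchanged. It also reported that JNKi removed that rise. A gene entered the counts when it averaged 1 FPKM or more over the 3 libraries of its table, which left 10311 genes for JUN overexpression and 11780 for JNKi. Among the 10 genes, 8 passed in the first table and 9 in the second, with LPL below the filter in both and PDK4 below it in the first. The median gene was shifted by 0.15 in JUN WT, -0.015 in JUN AA, -0.061 in iCAFs and -0.099 with JNKi, and by -0.29 in JUN AA with FPKM rescaled to equal sums, so differences near these sizes are no more than those of the median gene. The number of reads is unknown.

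The regulator of the group, PPARG, lies at 12328867 to 12475855 of chromosome 3 of GRCh37. Its mRNA was at 31.4 FPKM in MRC5, against 9.20 in iCAFs and 10.4 in iCAFs+JNKi. PPARG was thus 3.41 times lower in iCAFs than in MRC5, a log2 difference of -1.67, and 46 of 11780 genes were lower still. With JNKi it was 0.16 higher than in iCAFs on the log2 scale and stayed at 33.1% of the FPKM in MRC5. In the JUN overexpression table PPARG was at 8.48 FPKM in the control, against 25.1 in JUN WT and 12.4 in JUN AA. It was therefore higher with overexpressed JUN WT by 1.46 on the log2 scale and lower in iCAFs, where JUN mRNA was close to that of MRC5. The difference in JUN WT was 0.88, below 2-fold, once trends with transcript length and GC content were removed. In JUN AA the difference was 0.50, and 0.23 with rescaled FPKM.

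FABP3, the heart-type fatty acid binding protein, lies at 31838100 to 31849697 of chromosome 1 of GRCh37. Its mRNA measured 18.8 FPKM in MRC5, against 1.69 in iCAFs and 2.66 in iCAFs+JNKi. The level in iCAFs was 11.2 times lower, a log2 difference of -2.88 for which FABP3 was picked, and 1 gene was lower still in the same comparison. JNKi left FABP3 at 14.1% of MRC5, 0.45 above iCAFs on the log2 scale. In the other table it was at 10.4 FPKM in the control, against 15.2 in JUN WT and 7.61 in JUN AA, differences of 0.51 and -0.40 that stay under 2-fold. FABP4, the adipocyte-type protein that macrophages and endothelial cells also use, lies at 82390654 to 82395471 of chromosome 8. Its mRNA measured 28.7 FPKM in MRC5, against 4.21 in iCAFs and 9.61 in iCAFs+JNKi. The level in iCAFs was 6.82 times lower, a log2 difference of -2.51, which is again what chose the gene. With JNKi it was 2.28 times the level in iCAFs, a log2 difference of 1.03, and reached 33.5% of MRC5. Unlike FABP3, FABP4 was at its highest of the infected libraries in JUN AA, with 7.10 FPKM in the control, against 5.70 in JUN WT and 15.2 in JUN AA. The log2 difference of 0.999 in JUN AA lay just under the 2-fold limit of 1, and it was 0.36 with length and GC trends removed.

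FABP5, the epidermal-type protein, had another pattern. It lies at 82192771 to 82197012 of chromosome 8 of GRCh37 and measured 34.3 FPKM in MRC5, against 28.3 in iCAFs and 15.6 in iCAFs+JNKi. Its difference between iCAFs and MRC5 was -0.27 on the log2 scale, within 2-fold, while FABP3 and FABP4 were far lower there. With overexpressed JUN it was at 15.8 FPKM in the control, against 69.6 in JUN WT and 68.0 in JUN AA. FABP5 was thus higher by nearly the same amount with both forms of JUN, 2.07 and 2.04 on the log2 scale, although JUN mRNA was 15.6 times higher in JUN WT than in JUN AA. Among the 10311 genes, 40 were further up in JUN WT and 24 in JUN AA, each against the same control library. With length and GC trends removed the differences were 1.66 in JUN WT and 1.34 in JUN AA, further apart than as deposited. FABP5 has 15 annotated pseudogenes named after it, which could share reads with it, and its exons overlap those of LNMICC on the opposite strand with the strand setting of the counting not given. FABP5P3, the pseudogene listed in the tables, was at 0.24 FPKM in the control and listed at 0 in the other 5 libraries. These values do not settle whether reads of pseudogenes were counted for FABP5.

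PLIN2 encodes the protein that coats lipid droplets in most cells, and it lies at 19108373 to 19149288 of chromosome 9 of GRCh37. It had the highest level of the 10 genes in all 3 libraries of the JNKi table, at 58.1 FPKM in MRC5, against 58.3 in iCAFs and 31.3 in iCAFs+JNKi. The MRC5 and iCAFs libraries differed by 0.0062 on the log2 scale, and the JNKi library was lower than iCAFs by -0.87. PLIN2 thus did not follow PPARG, FABP3 and FABP4 in iCAFs. In the other table it was at 20.8 FPKM in the control, against 41.4 in JUN WT and 25.7 in JUN AA. The difference in JUN WT was 0.96, just under the 2-fold limit, and 0.40 with length and GC trends removed. In JUN AA it was 0.30, and -0.0008 with rescaled FPKM.

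CD36 encodes a membrane receptor that takes up long-chain fatty acids, and it lies at 79998891 to 80308593 of chromosome 7 of GRCh37. Its mRNA measured 4.90 FPKM in MRC5, against 0.81 in iCAFs and 4.10 in iCAFs+JNKi. The level in iCAFs was 6.05 times lower than in MRC5, a log2 difference of -1.70. With JNKi it was 5.06 times higher than in iCAFs, at 83.7% of MRC5, a larger share of the MRC5 level than that of PPARG, FABP3 or FABP4. With a pseudocount of 0.1 the log2 differences of CD36 were -2.46 in iCAFs and 2.21 with JNKi. CD36 was also lower in JUN WT, at 2.23 FPKM against 7.07 FPKM in the control, and stood at 5.21 FPKM in JUN AA. On the log2 scale these are differences of -1.32 and -0.38. A RefSeq promoter window is 300 bases long and runs from 250 bases before an annotated start. Of 17 windows found for 7 of the 10 genes, 1 window of CD36 holds the AP-1 heptamer, TGACTCA or TGAGTCA on either strand, as do 4.95% of all 35116 windows. It is shown because AP-1 is the family of JUN, with the heptamer at position -124 from the start and a TATAAA at -216, both in capitals, on the plus strand of GRCh38.p14 at chr7:80645999-80646298.
CD36 promoter window: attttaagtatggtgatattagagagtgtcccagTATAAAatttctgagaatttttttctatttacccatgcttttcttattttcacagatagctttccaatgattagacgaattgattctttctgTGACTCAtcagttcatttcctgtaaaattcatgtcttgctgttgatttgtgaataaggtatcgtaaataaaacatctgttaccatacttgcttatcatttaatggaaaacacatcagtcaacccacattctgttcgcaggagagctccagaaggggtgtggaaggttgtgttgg
The other 5 windows of CD36 hold no such heptamer, and a match is a description of letters and not a shown binding site.

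LPL, the lipoprotein lipase that frees fatty acids from circulating triglycerides, was not expressed at a level these files can show. It was listed at 0 in 5 of the 6 libraries and at 0.014 FPKM in JUN WT. ANGPTL4 encodes a secreted inhibitor of lipoprotein lipase, and it lies at 8428173 to 8439254 of chromosome 19 of GRCh37. Its mRNA measured 6.10 FPKM in MRC5, against 30.3 in iCAFs and 9.96 in iCAFs+JNKi. ANGPTL4 was thus 4.97 times higher in iCAFs, a log2 difference of 2.14 that 60 genes exceeded, and 3.04 times lower with JNKi, a log2 difference of -1.51 below which 76 genes lay. In the other table it was at 4.80 FPKM in the control, against 7.85 in JUN WT and 1.33 in JUN AA. Against the control it differed by 0.61 in JUN WT and by -1.32 in JUN AA, and the level in JUN WT was 5.92 times that in JUN AA. Of the 10 genes, ANGPTL4 alone was above the control in JUN WT and at least 2-fold below it in JUN AA. Its mRNA was thus high in iCAFs, and the mRNA of the enzyme it inhibits was listed at 0 in all 3 libraries of that table. The promoter windows of ANGPTL4 and FABP3 are printed as those of the genes that were higher and lower in iCAFs. Neither holds an AP-1 heptamer. The ANGPTL4 window is on the plus strand of GRCh38.p14 at chr19:8363905-8364204 with its TATAAA at position -29 in capitals, and the FABP3 window is on the minus strand at chr1:31373027-31373326 with no match.
ANGPTL4 promoter window: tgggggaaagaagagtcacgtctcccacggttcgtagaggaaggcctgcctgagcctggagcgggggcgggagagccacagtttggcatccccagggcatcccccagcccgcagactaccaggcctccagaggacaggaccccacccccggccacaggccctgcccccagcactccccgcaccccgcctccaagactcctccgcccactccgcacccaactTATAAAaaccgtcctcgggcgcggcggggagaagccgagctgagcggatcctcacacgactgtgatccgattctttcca
FABP3 promoter window: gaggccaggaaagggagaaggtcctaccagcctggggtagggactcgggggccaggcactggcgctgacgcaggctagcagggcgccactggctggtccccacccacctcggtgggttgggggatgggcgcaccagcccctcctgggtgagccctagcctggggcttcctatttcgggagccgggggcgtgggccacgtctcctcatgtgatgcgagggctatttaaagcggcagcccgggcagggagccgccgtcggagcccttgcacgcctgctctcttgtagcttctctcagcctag
TATAAA, sought on either strand, was found in 6 of the 17 windows and in 11.5% of all windows. The 6 are of PPARG, PLIN2, CD36 and ANGPTL4, and some hold it on the opposite strand, as TTTATA. Some of the 17 windows overlap.

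PDK4 encodes a kinase that switches off pyruvate dehydrogenase and so spares glucose when fat is burned, and it lies at 95212811 to 95225828 of chromosome 7 of GRCh37. Its mRNA measured 0.085 FPKM in MRC5, against 6.00 in iCAFs and 24.6 in iCAFs+JNKi. PDK4 was therefore higher in iCAFs by 2.69 on the log2 scale and higher again with JNKi by 1.87, where 57 genes were further up. It passed the filter of this table through the levels of those 2 libraries. The ratio of 70.8 between iCAFs and MRC5 rests on a value near 0 in MRC5 and is imprecise, and the log2 difference became 5.05 with a pseudocount of 0.1. In the infected cells PDK4 was at 0.36 FPKM in the control, against 0.046 in JUN WT and 0.032 in JUN AA. All 3 lie under 1 FPKM, where a difference is not detectable without knowing the read number. CPT1A encodes the liver-type carnitine palmitoyltransferase of the outer mitochondrial membrane, and it lies at 68522088 to 68611878 of chromosome 11. Its mRNA measured 11.8 FPKM in MRC5, against 14.3 in iCAFs and 18.0 in iCAFs+JNKi, and 4.63 FPKM in the control, against 3.30 in JUN WT and 2.34 in JUN AA. CPT1A stayed within 2-fold in all 4 comparisons, with log2 differences of -0.39, -0.75, 0.26 and 0.31 in JUN WT, JUN AA, iCAFs and with JNKi. In JUN AA the difference was -1.10, past 2-fold, with rescaled FPKM.

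**Figure D1:**
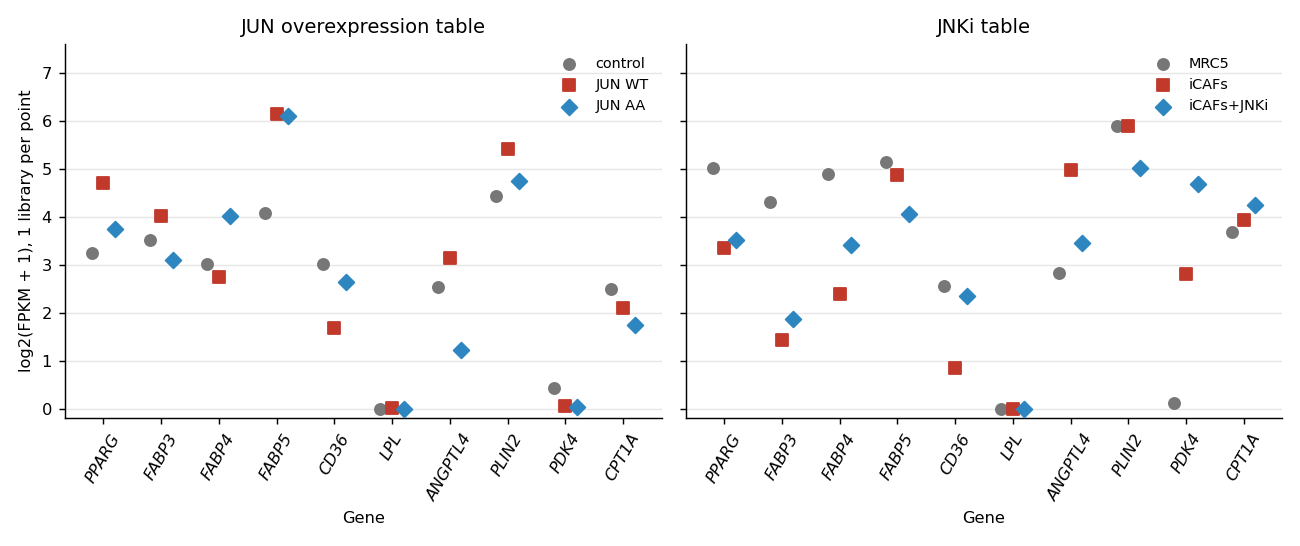
Level of each of the 10 genes as log2(FPKM + 1) on the vertical axis, with 1 point per library and no replicates. The left panel shows the infected cells (control, JUN WT, JUN AA) and the right panel MRC5, iCAFs and iCAFs+JNKi. In the right panel PPARG, FABP3, FABP4 and CD36 are lowest in iCAFs, ANGPTL4 is highest in iCAFs at 30.3 FPKM, and PDK4 is highest in iCAFs+JNKi at 24.6 FPKM.

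Set side by side, the 9 genes that passed the filter fell into 3 patterns in iCAFs against MRC5. FABP3, FABP4, CD36 and PPARG were at least 2-fold lower, PDK4 and ANGPTL4 at least 2-fold higher, and FABP5, PLIN2 and CPT1A within 2-fold. Over all genes, 2-fold lower levels were found for 1.71% and 2-fold higher levels for 1.94%. Because genes were picked for their decrease in this comparison, nothing is read from the 4 of 9 and 2 of 9 against these shares. The median of the 9 log2 differences was -0.27, beside -0.061 for all genes, and it hides differences from -2.88 to 2.69. As a result the order of levels was not the same. In MRC5, FABP5, PPARG and FABP4 followed PLIN2 at 34.3, 31.4 and 28.7 FPKM. In iCAFs, ANGPTL4, FABP5 and CPT1A followed it at 30.3, 28.3 and 14.3 FPKM, and in iCAFs+JNKi PDK4, CPT1A and FABP5 did at 24.6, 18.0 and 15.6 FPKM. Neighbours in these orders have no replicate error by which they could be told apart.

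With JNKi against iCAFs, PDK4, CD36 and FABP4 were at least 2-fold higher, beside 2.25% of all genes, and ANGPTL4 was at least 2-fold lower, beside 1.97%. The share of higher genes among all those past 2-fold was 53.3% as deposited, 64.0% after centring on the median gene and 66.4% after removal of length and GC trends. This comparison shares the iCAFs library with the one before, so a chance deviation of that library would move both in opposite directions. Against MRC5 itself, the iCAFs+JNKi library was lower, with log2 differences of -2.44 for FABP3, -1.51 for PPARG, -1.49 for FABP4, -1.09 for FABP5, -0.87 for PLIN2 and -0.21 for CD36. It was higher by 0.57 for CPT1A, 0.63 for ANGPTL4 and 4.56 for PDK4. CD36 and ANGPTL4 were thus the genes nearest to MRC5 among those that had differed at least 2-fold in iCAFs, and PDK4 was the farthest.

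In JUN WT against control, FABP5 and PPARG were at least 2-fold higher and CD36 at least 2-fold lower among the 8 genes that passed the filter. Over all genes, 6.92% were higher and 3.39% lower by this limit. The higher genes made up 67.1% of those past 2-fold, but 45.5% after centring on the median gene and 49.2% after removal of length and GC trends. In JUN AA, FABP5 was at least 2-fold higher and ANGPTL4 at least 2-fold lower, beside 5.29% and 3.77% of all genes. There the higher genes made up 58.4% of those past 2-fold, but 26.1% with rescaled FPKM. Both comparisons use the same control library. The 8 genes had a median of 0.56 for JUN WT and -0.041 for JUN AA, beside 0.15 and -0.015 for all genes. Of the 4 genes that were at least 2-fold lower in iCAFs, CD36 was lower in JUN WT as well, PPARG was higher, and FABP3 and FABP4 were within 2-fold.

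**Figure D2:**
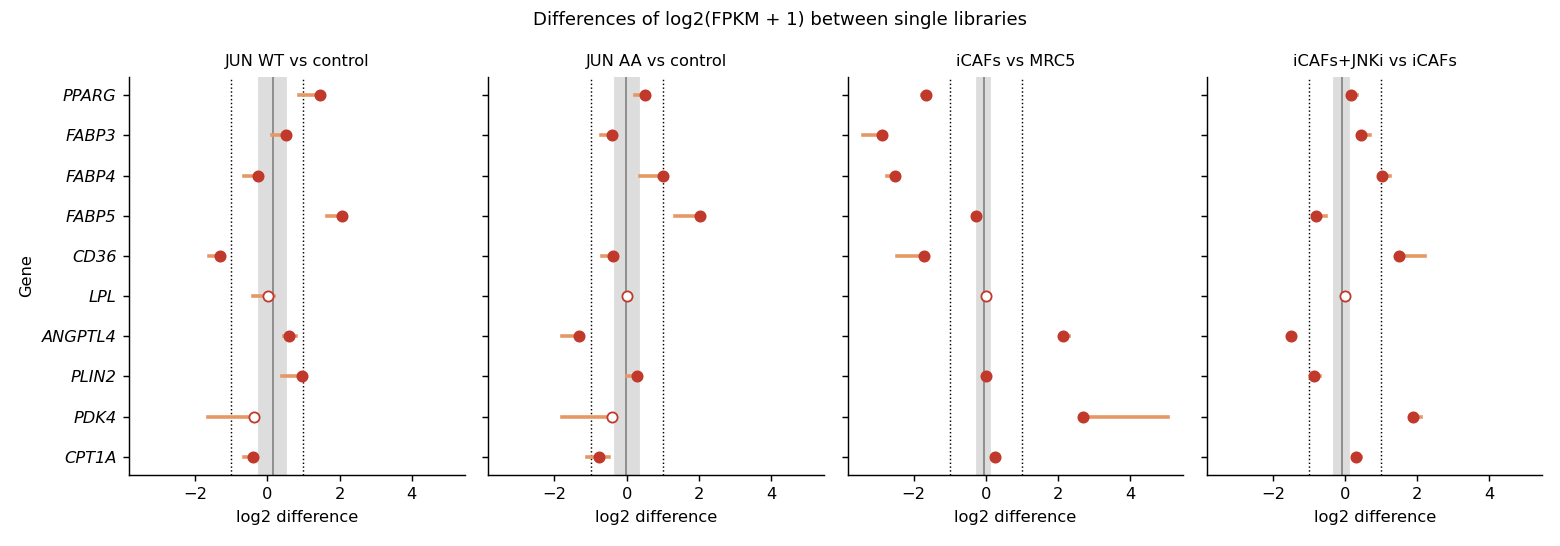
Difference of log2(FPKM + 1) between single libraries for each of the 10 genes in the 4 comparisons. Points give the value as reported, open points mark genes below the filter of 1 FPKM, orange lines span the lowest and highest value over the alternative settings, the grey band and line give the quartiles and median of all genes that passed the filter, and dotted lines mark 2-fold. FABP5 stands at 2.07 and 2.04 in the JUN panels, and FABP3 and PDK4 mark the ends of the iCAFs panel at -2.88 and 2.69.

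The wider pathway was followed in 5 further lists, whose counts stand beside the shares of all genes past 2-fold. Those shares were 1.94% higher and 1.71% lower in iCAFs, and 2.25% and 1.97% with JNKi. In the same order they were 6.92% and 3.39% in JUN WT, and 5.29% and 3.77% in JUN AA. Most of all genes thus lay within 2-fold, so a count within 2-fold is not read as a trait of a list. Among PPAR and RXR receptors and their coregulators, 13 of 18 genes passed the filter in the JNKi table and 12 of them were within 2-fold in iCAFs. PPARD, the receptor relative found in most tissues, was at 17.3 FPKM in MRC5, against 18.6 in iCAFs and 19.6 in iCAFs+JNKi, so the low level of PPARG in iCAFs was not shared by it. PPARA was at 2.96, 2.63 and 3.42 FPKM and RXRA, the partner receptor, at 12.6, 10.4 and 14.8 FPKM in the same order. CEBPD, a transcription factor that acts early in fat cell formation, was the exception at 11.8 FPKM in MRC5 and 43.8 FPKM in iCAFs, a log2 difference of 1.80, and stayed at 48.7 FPKM with JNKi. In JUN WT, CEBPD and CEBPB were at least 2-fold lower, by -1.91 and -1.16 on the log2 scale, and none of the 9 measured genes of the list was past 2-fold in JUN AA. CEBPB overlaps its antisense gene on the opposite strand. The medians of this list were 0.080 in iCAFs, 0.15 with JNKi, -0.50 in JUN WT and -0.29 in JUN AA.

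Among lipid droplet proteins and lipases, 15 of 23 genes passed in the JNKi table. G0S2, an inhibitor of the triglyceride lipase ATGL, was at 10.8 FPKM in MRC5, against 53.2 in iCAFs and 9.65 in iCAFs+JNKi. It was thus higher in iCAFs by 2.20 and lower with JNKi by -2.35 on the log2 scale, the same directions as ANGPTL4. LPIN1, a phosphatidate phosphatase of triglyceride synthesis, was lower in iCAFs with a log2 difference of -1.69, at 35.4 FPKM in MRC5, against 10.3 in iCAFs and 9.60 with JNKi. DGAT2, which makes the final step of triglyceride synthesis, was at 5.87 FPKM in iCAFs and 2.39 FPKM with JNKi, a log2 difference of -1.02 that was past 2-fold by little. Of the 15 genes, 13 were within 2-fold in iCAFs, DGAT2 among them, and the medians were -0.10 in iCAFs and -0.094 with JNKi. In JUN WT, G0S2, DGAT2 and ABHD5, the activator of ATGL, were at least 2-fold higher by 1.52, 1.35 and 1.17 among 14 genes measured. G0S2 was at 0.81 FPKM in the control, against 4.19 in JUN WT and 0.96 in JUN AA. It passed the filter of this table through the JUN WT library, so its place in the count is a description only. With a filter of 5 FPKM none of the list was at least 2-fold higher in JUN WT. In JUN AA all 14 measured genes of the list were within 2-fold. The medians were 0.40 and 0.18. DGAT2, ABHD5 and LPIN1 overlap genes on the opposite strand.

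Among genes of fatty acid uptake and activation, 22 of 23 were listed and 14 passed in the JNKi table. CAV1, the coat protein of caveolae, was at 295 FPKM in MRC5, against 85.0 in iCAFs and 108 in iCAFs+JNKi. It was lower in iCAFs, with a log2 difference of -1.78. With JNKi, ANGPTL2, a secreted relative of ANGPTL4, was at 44.5 FPKM after 16.3 FPKM in iCAFs, a log2 difference of 1.39 and opposite in direction to that of ANGPTL4. In JUN WT, ACSL3, which activates fatty acids for droplet formation, and CAV1 were higher by 1.25 and 1.19, and in JUN AA LRP1 was lower by -1.09. The medians were -0.20 in iCAFs, 0.13 with JNKi, -0.27 in JUN WT and -0.31 in JUN AA, with 13 genes measured in the JUN table. ACSL3 and LRP1 overlap genes on the opposite strand.

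Among genes of fatty acid oxidation and the other PDK genes, 22 of 26 passed in both tables, and 21 were within 2-fold in iCAFs. CPT1B, the muscle-type relative of CPT1A, was at 1.99 FPKM in MRC5, against 0.26 in iCAFs and 4.83 in iCAFs+JNKi, with log2 differences of -1.25 and 2.21, but it shares exon bases with the readthrough gene CHKB-CPT1B. UCP2, a carrier of the inner mitochondrial membrane, was at 3.46 FPKM in iCAFs and 11.3 FPKM with JNKi, a log2 difference of 1.47. PDK1, the relative of PDK4 that is raised by low oxygen, was at 17.1 FPKM in MRC5, against 14.3 in iCAFs and 9.65 with JNKi, and so did not follow PDK4. In JUN WT, SLC25A20, the carnitine carrier, ACAA2 and ETFA were at least 2-fold higher by 1.80, 1.11 and 1.02, and ECI1 was lower by -1.97. ACAA2 shares exon bases with an unnamed gene on its own strand. The count of 3 higher genes in JUN WT was 1 after centring on the median gene, and also after removal of length and GC trends, but 4 with rescaled FPKM and 5 with a pseudocount of 0.1. In JUN AA, PDK1 was higher by 1.52, and its exons overlap those of PDK1-AS1. The medians were -0.20 in iCAFs, -0.13 with JNKi, 0.45 in JUN WT and 0.061 in JUN AA. With length and GC trends removed the median in JUN WT was 0.036.

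Of 12 other lipid binding proteins, 3 passed the filter in each table. CRABP2, a retinoic acid binding protein, was at 6.19 FPKM in the control, against 25.0 in JUN WT and 16.7 in JUN AA, higher with both forms of JUN as FABP5 was. DBI, the acyl-CoA binding protein, was higher in JUN AA by 1.13 and at 0.82 with rescaled FPKM. In iCAFs and with JNKi all 3 were within 2-fold, with medians of -0.51 and 0.19, beside 0.096 in JUN WT and 1.13 in JUN AA.

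**Figure D3:**
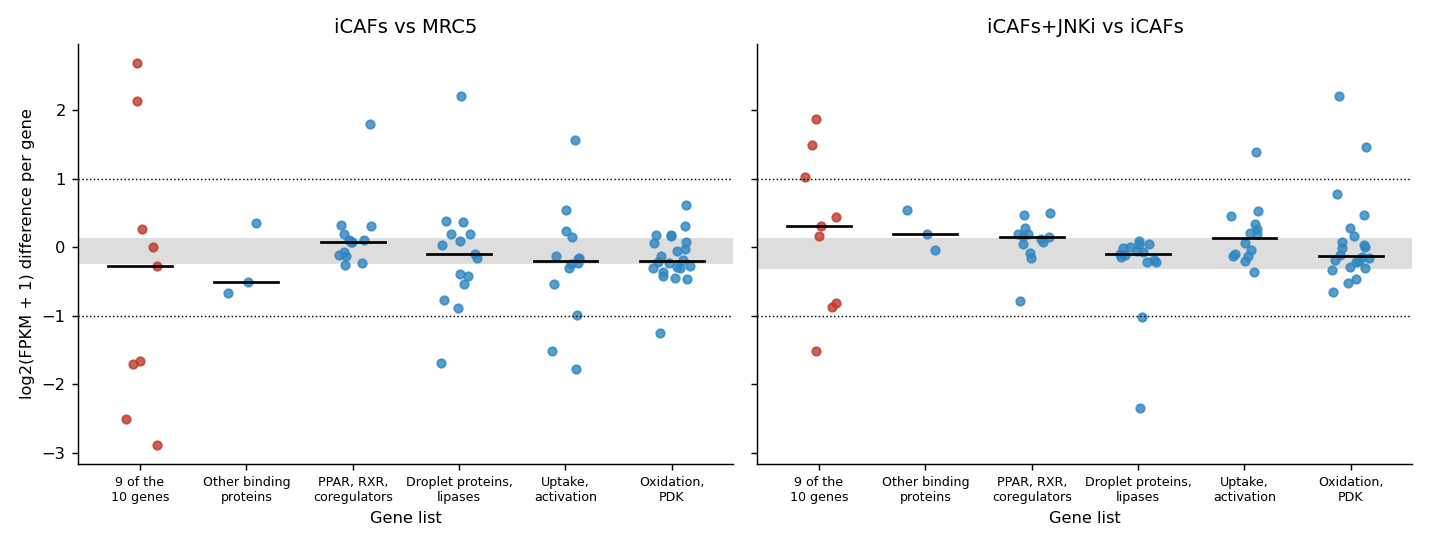
Difference of log2(FPKM + 1) for each gene that passed the filter in the JNKi table, for 9 of the 10 genes (red) and the 5 wider lists (blue), for iCAFs against MRC5 (left) and iCAFs+JNKi against iCAFs (right). Black bars are medians, the grey band spans the quartiles of all genes and dotted lines mark 2-fold. Most genes of the wider lists lie between the dotted lines, as most of all genes do. G0S2 at 2.20 and CEBPD at 1.80 lie above them in iCAFs.

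The patterns of FABP3 and FABP4 were set against those of 10019 genes by the distance over the 4 log2 differences, where 0 is an identical pattern. These include the difference between iCAFs and MRC5 for which both genes were picked, and the JNKi difference shares its iCAFs library. Genes with a large decrease in iCAFs are therefore favoured, and nearness is a description that supports nothing. ITGBL1, OXTR and CTSK were nearest to FABP3, at distances of 0.67, 0.74 and 1.00. OXTR, the oxytocin receptor, was at 14.9 FPKM in MRC5, against 1.82 in iCAFs and 2.12 in iCAFs+JNKi. CEMP1, DTNA and HMGCS1 were nearest to FABP4, at 0.80, 1.18 and 1.19, and CEMP1 overlaps AMDHD2 on the opposite strand. HMGCS1, an enzyme of cholesterol synthesis, was at 23.3 FPKM in MRC5, against 5.65 in iCAFs and 10.3 in iCAFs+JNKi. ITGBL1, DTNA and HMGCS1 overlap other genes as well.

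Markers of other cell types were read because fat cells, macrophages, endothelium and muscle also use these genes. Of 10 adipocyte markers, ADIPOQ and LEP were listed at 0 in all 6 libraries and PLIN1, the droplet coat of fat cells, at 0 in the 3 of the JNKi table. The summed adipocyte markers were at 5.93 FPKM in MRC5, against 3.52 in iCAFs and 3.23 with JNKi, and between 3.50 and 6.22 FPKM in the JUN table. Of 10 macrophage markers, CD68 was the single one measured in each table, and PTPRC, ITGAM, LYZ, TYROBP and AIF1 were at 0 in the JNKi table. Their sum was 39.0 to 49.3 FPKM in that table, and 33.3, 86.6 and 33.3 FPKM in the control, JUN WT and JUN AA. The 8 endothelial markers summed to 2.94 FPKM in MRC5, against 4.22 in iCAFs and 11.6 with JNKi, most of it TEK at 10.4 FPKM in the last, and CDH5 was at 0 in both tables. They summed to 0.65 to 1.23 FPKM in the JUN table. The 8 muscle markers stayed below 1 FPKM in sum in each library. Of 8 epithelial markers, KRT8 and KRT18 were measured and CDH1 and ESRP1 were at 0. The sums were 33.8 to 41.0 FPKM in the JNKi table and 57.3, 22.1 and 20.2 FPKM in the control, JUN WT and JUN AA. KRT8 and KRT18 make up most of these sums and overlap each other on opposite strands. All 10 fibroblast markers passed the filter in both tables. They summed to 5640 FPKM in MRC5, against 4040 in iCAFs and 6252 with JNKi. With JNKi, 6 of 10 were at least 2-fold higher than in iCAFs, beside 2.25% of all genes. In the JUN table the sum was between 4649 and 6263 FPKM, but single markers differed. PDGFRB, LUM, COL1A1 and PDGFRA, 4 of 10, were at least 2-fold lower in JUN WT, beside 3.39% of all genes, and 0 were higher. In JUN AA, PDGFRB, COL3A1 and PDGFRA were at least 2-fold lower, beside 3.77% of all genes. LUM was at least 2-fold higher there, beside 5.29%. The part of these marker changes in the results was not tested, and in bulk RNA fewer cells that express a gene and less RNA per cell cannot be told apart.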

How the data were processed

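RNA-seq was done by the study on 6 libraries of the MRC5 line, and groups were taken from the sample labels. The authors mapped reads to hg19 with HISAT2 2.1.0 at default parameters and deposited FPKM per gene from StringTie 2.1.1. The annotation, the strand setting and the read number are not given in the sources used here, and the low values did not give the read number, since the most common ratio between libraries held at most 3.59% of genes under 0.5 FPKM, so the precision of single values is unknown. Count models were not applied, since the values are FPKM.

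Each table has 25370 rows, and a repeated symbol was represented by its row of highest mean. Differences of log2(FPKM + 1) within each table were taken with pandas 2.3.3 and numpy 2.4.6 (Python 3.11.15). Genes averaging 1 FPKM or more entered counts, and 2-fold means a log2 difference of 1. The 10 genes and the lists were chosen with earlier results of these data known. From each list, the largest rise and fall past 2-fold in each comparison were named, with all genes of a count of 5 or fewer. PPARA, PPARD, RXRA, FABP5P3 and PDK1 in iCAFs were named after their values were seen. Some genes of the lists are counted but not reported here by name. The 3 nearest patterns were found by Euclidean distance.

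GENCODE v44lift37 on GRCh37 gave gene positions, overlaps, transcript length and GC content, the last 2 for 91.1% of filtered genes in the JUN table and 90.4% in the JNKi table. The 7 alternatives were no filter, a filter of 5 FPKM, a pseudocount of 0.1, rescaling of each library to 1000000, centring on the median gene, summed rows and removal of length and GC trends as medians in 20 bins. Promoter windows are from RefSeq on GRCh38.p14. Figures were drawn with matplotlib 3.10.9.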

Additional observations from a re-analysis of the deposited data

How the results depend on the processing

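With 1 library per condition no library could be left out and no replicate error can be given, so a value was taken to have moved past limits chosen here, 0.25 on the log2 scale and 1.5 times for counts. Depth limits the genes near 0 most, LPL in all libraries and PDK4 in the infected cells and MRC5. No paired analysis was possible because each condition has 1 library.

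For the 10 genes, the counts past 2-fold in iCAFs against MRC5 and with JNKi moved by no more than 1.5 times under the 7 alternatives. In JUN WT, 1 of the 10 genes was higher, in place of 2, with length and GC trends removed, and 0 were lower, in place of 1, with the filter at 5 FPKM. In JUN AA, 2 were higher, in place of 1, with a pseudocount of 0.1 or with changes centred on the median gene, 2 were lower, in place of 1, with rescaled FPKM, and 0 were lower with the filter at 5 FPKM. Of 200 single differences of the 10 genes under 5 alternatives, 165 moved by at most 0.25 and 35 by more, and none past 2-fold changed sign.

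Over all genes, a pseudocount of 0.1 gave 1229 higher and 527 lower in JUN WT in place of 714 and 350, 629 lower in JUN AA in place of 389, 356 lower in iCAFs in place of 202 and 386 lower with JNKi in place of 232. With the filter at 5 FPKM there were 458 higher in JUN WT, 128 lower in iCAFs, and 169 higher and 147 lower with JNKi. Rescaled FPKM gave 338 higher in place of 545 and 957 lower in JUN AA, and 411 higher in place of 265 with JNKi. Centring gave 436 higher in JUN WT. Removal of trends gave 321 higher in JUN WT, 278 higher in JUN AA and 147 lower with JNKi. A stricter filter leaves fewer genes to count; for the other settings the cause was not tested.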
